A study of Mus musculus with 35 samples.

Results

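Open chromatin of haematopoietic progenitor cells (HPCs) of 8-week-old adult mice was compared with that of HPCs at postnatal day 21 (P21), the age of weaning. ATAC-seq, in which Tn5 transposase inserts adapters into accessible DNA, had been run on 35 libraries of mouse haematopoietic stem cells (HSCs) and HPCs on a B6 background, deposited as 12 pooled peak lists. Adult HPCs had 3 libraries and P21 HPCs had 2, all labelled as wild type, with no treatment named. The libraries of each age had been pooled into 1 list, so library-to-library spread could not be estimated and the ages could not be compared by a test. For these 5 libraries the labels name no sex, sort gate, tissue or number of animals. The other lists used for comparison were wild-type fetal (E16.5), P7 and P14 HPCs and fetal, P14 and adult HSCs of the same set, and a second set of P7 HPCs and HSCs from wild-type and Ifnar-ko mice, which lack the type I interferon receptor. After touching or overlapping peaks on chromosomes 1 to 19 and X were merged, the adult list held 90698 regions (from 130144 peaks) and the P21 list 74297 (from 113312 peaks), out of 891747 in all 12 lists. A region was shared when at least 1 bp overlapped the other list, and otherwise it is called adult-alone or P21-alone. Strong regions are those in the upper 50% of their list, ranked by the highest −log10 p of their peaks.

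HPCs are the dividing descendants of HSCs from which the myeloid, erythroid and lymphoid lineages arise. Between birth and adulthood they leave a fetal state marked by Lin28b, Hmga2 and Igf2bp3 for an adult one. A region accessible to Tn5 is usually a promoter or a distal element such as an enhancer or a CTCF-bound site, and CpG-rich promoters are open in most cell types, whereas distal elements differ more between cell types and stages. In pooled material, fewer cells with an open region and less opening per cell cannot be told apart, and a region absent from a list was not called, which does not show that it was closed.

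The lists were taken by their names. All 3 adult HPC libraries name the adult HPC list in their descriptions. Both P21 libraries name the P14 HSC list, and the P21 HPC list is named by 2 libraries of other groups. Libraries of P14 HPCs and P14 HSCs also name another list than their own. The P7 HPC, fetal HPC and adult HSC lists are each named by some libraries of their own group and some of another. The content of the P21 list was therefore set against regions that told HPCs from HSCs in a separate set of P7 wild-type lists. Of 4690 strong HPC-specific regions, the adult HPC list held 94.2% and the P21 list 92.5%, against 55.1 to 61.4% in the fetal, P14 and adult HSC lists. Of 221 HSC-specific regions, the adult HPC list held 62.0% and the P21 list 43.4%, against 97.7 to 98.6% in the HSC lists. The P21 list thus held the regions of an HPC list and fewer of the HSC-specific ones than any other HPC list (62.0 to 78.7%). This check sets HPC against HSC lists and cannot check the age of any list, which rests on its name.

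Open regions at the promoters of 2 sets of genes show how the list-specific promoters of the 2 lists differed. The 250 bases before the annotated start are given for the 3 promoters with the highest −log10 p in each direction that lay at least 200 bases inside a region of one list alone. They are RefSeq sequences of GRCm38.p6, 5′ to 3′ on the strand of the gene, with CpG dinucleotides in capitals. The adult-alone set held Olfr110 (chr17:37492218-37492467, plus strand), an olfactory receptor, Fam180a (chr6:35326142-35326391, minus strand), and Dmp1 (chr5:104202367-104202616, plus strand), a matrix protein of bone and dentin.
Olfr110: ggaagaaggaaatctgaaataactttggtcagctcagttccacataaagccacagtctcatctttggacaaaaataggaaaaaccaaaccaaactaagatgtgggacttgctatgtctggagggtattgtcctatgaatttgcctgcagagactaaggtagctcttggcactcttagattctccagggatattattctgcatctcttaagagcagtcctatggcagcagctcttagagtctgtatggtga
Fam180a: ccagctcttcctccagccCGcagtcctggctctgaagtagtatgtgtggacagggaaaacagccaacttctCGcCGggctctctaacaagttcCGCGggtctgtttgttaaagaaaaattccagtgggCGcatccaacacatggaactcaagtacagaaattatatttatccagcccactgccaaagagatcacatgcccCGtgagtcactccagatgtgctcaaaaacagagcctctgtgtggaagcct
Dmp1: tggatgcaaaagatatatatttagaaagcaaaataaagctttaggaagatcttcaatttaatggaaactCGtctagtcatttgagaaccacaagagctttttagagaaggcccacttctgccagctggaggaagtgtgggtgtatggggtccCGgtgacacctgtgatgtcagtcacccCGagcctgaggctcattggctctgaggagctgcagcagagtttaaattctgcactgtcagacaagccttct
The P21-alone set held Cacna1d (chr14:30353487-30353736, minus strand), a subunit of an L-type calcium channel, Heg1 (chr16:33684216-33684465, plus strand), a membrane protein of endothelial junctions, and Fam219b (chr9:57537278-57537527, plus strand).
Cacna1d: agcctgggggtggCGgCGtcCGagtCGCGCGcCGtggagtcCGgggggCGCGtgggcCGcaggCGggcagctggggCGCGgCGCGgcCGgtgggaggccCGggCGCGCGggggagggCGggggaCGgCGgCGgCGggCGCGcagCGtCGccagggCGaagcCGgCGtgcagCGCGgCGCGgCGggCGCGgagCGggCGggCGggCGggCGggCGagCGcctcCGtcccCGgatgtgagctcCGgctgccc
Heg1: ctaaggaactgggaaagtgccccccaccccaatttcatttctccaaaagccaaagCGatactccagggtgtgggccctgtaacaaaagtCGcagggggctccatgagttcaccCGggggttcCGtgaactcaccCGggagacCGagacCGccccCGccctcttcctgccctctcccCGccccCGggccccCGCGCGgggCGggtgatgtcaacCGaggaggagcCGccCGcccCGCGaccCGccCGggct
Fam219b: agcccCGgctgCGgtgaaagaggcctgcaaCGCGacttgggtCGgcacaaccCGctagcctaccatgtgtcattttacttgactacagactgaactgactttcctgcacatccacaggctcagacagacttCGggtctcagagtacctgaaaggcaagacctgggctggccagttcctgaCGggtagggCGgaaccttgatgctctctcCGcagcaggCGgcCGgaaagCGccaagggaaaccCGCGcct
The 3 adult-alone sequences held 0, 7 and 3 CpGs, against 50, 21 and 15 in the 3 P21-alone sequences. GC content was 42.4, 50.4 and 45.6% in the adult-alone set, against 86.4, 68.0 and 59.6% in the P21-alone set.

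The same contrast held over all list-specific promoters, which were few. Of 19592 promoter windows (250 bases before to 50 after the start, chromosome 18 not included), adult regions overlapped 12169 and P21 regions 12368, and 11828 were overlapped in both lists. An adult-alone region overlapped 303 of the 12169 promoters and a P21-alone region 383 of the 12368. These are low shares, where 27.5% of all adult and 12.5% of all P21 regions were list-specific. Median GC content was 54.7% in the adult-alone promoters (quartiles 48 and 61%), against 61.7% in the P21-alone promoters (55.3 and 68.7%). The median number of CpGs per 300 bases was 9 in adult-alone promoters and 16 in P21-alone promoters, beside 22 in promoters shared by both lists and 3 in promoters overlapped in neither. Among strong regions the gap was wider, with medians of 52.8% GC in 34 adult-alone promoters and 64.0% in 25 P21-alone promoters.

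Motifs were searched on both strands of the same windows, as letters only. The AP-1 motif TGANTCA was in 10.9% of adult-alone and 7.57% of P21-alone promoters, beside 7.12% of all promoters. The RUNX motif TGTGGTT was in 4.62% of adult-alone and 1.04% of P21-alone promoters, beside 4.44% of all. The PU.1 motif GAGGAAGT was in 4.62% and 2.09%, beside 3.19%, and the GATA motif AGATAA in 10.9% and 7.05%, beside 9.53%. The interferon response motif was in 5.61% and 3.13% (3.42% of all), the C/EBP motif TTGCNNAA in 12.9% and 7.05% (10.04% of all), and the EBF motif in 1.32% and 1.83% (0.975% of all). The steroid receptor motif was in 0.990% of the 303 adult-alone promoters and in none of the 383 P21-alone promoters, beside 0.439% of all. These last shares rest on few promoters. All promoters include 6883 that were overlapped in neither list. In promoters overlapped in both lists the shares were 4.12% for AP-1, 3.55% for RUNX, 3.14% for PU.1 and 5.37% for GATA. They were 2.90% for the interferon response, 7.78% for C/EBP, 0.964% for EBF and 0.245% for the steroid receptor motif. Base composition differed between the sets as given above, and its part in these shares was not tested.

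The adult list held far more open regions of its own than the P21 list. Of 45398 strong adult regions, 2838 were missing from the P21 list (6.25%, exact Clopper-Pearson 95% interval 6.03 to 6.48%), whereas of 37150 strong P21 regions 186 were missing from the adult list (0.501%, 0.431 to 0.578%). These intervals, here and below, cover counting error only. Over all regions, 24987 adult regions (27.5%) and 9316 P21 regions (12.5%) were list-specific, counts that also carry the difference in list length. When the adult list was cut to the 74297 regions with the highest −log10 p, 1447 strong adult regions (3.90%) were missing from the P21 list and 277 strong P21 regions (0.746%) from the adult list. Over all regions the 2 directions then came out near each other, at 13463 adult-alone (18.1%) and 13752 P21-alone (18.5%). Lists of equal length whose regions mostly overlap 1 to 1 must give near equal counts, so these 2 counts do not compare the ages. The cut removed 16401 adult regions with −log10 p up to 21.2, of which 70.3% were adult-alone.

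Few of the missing regions were near misses. Within 500 bp of an adult-alone strong region the P21 list had a region in 97 of 2838 cases (3.42%), and the adult list had one near 18 of 186 P21-alone strong regions (9.68%). Within 5 kb the shares were 23.8% for adult-alone and 44.6% for P21-alone strong regions.

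Missing regions lay mainly in the weaker parts of each list. Below percentile 10 of the adult list by −log10 p, 76.1% of regions were missing at P21, against 8.92% between percentiles 60 and 70 and 0.0882% (8 of 9070 regions) above percentile 90. In the P21 list the share missing from the adult list was 52.2% below percentile 10, 0.501% between percentiles 60 and 70, and 0 of 7430 above percentile 90. At equal list length the order was the other way in the 3 weakest classes, with 50.9, 40.1 and 31.2% of adult and 69.3, 50.8 and 33.2% of P21 regions missing. In the upper 25% of each list, 296 adult regions and 3 P21 regions were list-specific.

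**Figure D1:**
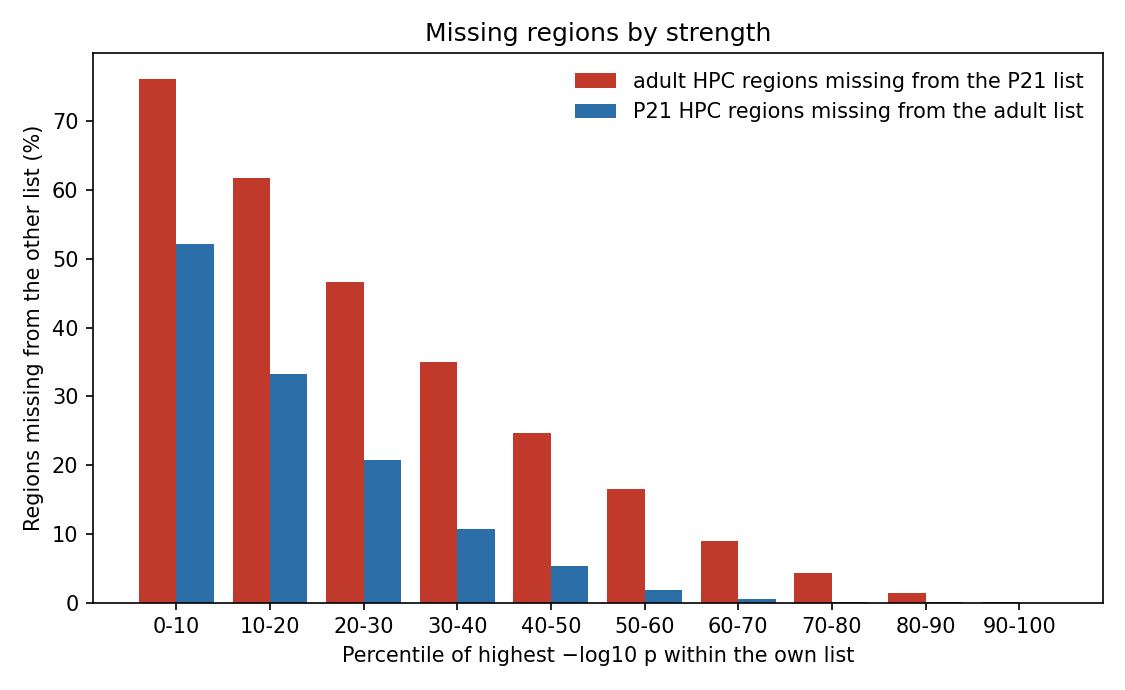
Share of regions missing from the other list (y axis, %) by percentile of the highest −log10 p within the own list (x axis), for adult HPCs (red) and P21 HPCs (blue), 1 pooled list each. The adult bars go down from 76.1% to 0.0882% and stand above the P21 bars in all 10 classes for the lists as deposited. At equal list length the P21 shares were higher in the 3 weakest classes.

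Where the missing regions lay differed between the directions. Adult-alone strong regions were distal and in gene-poor DNA: their median distance to the nearest end of a protein-coding gene was 55.9 kb, against 11.9 kb for strong adult regions shared with P21. Within 1 kb of a gene end lay 3.81% of adult-alone strong regions (3.13 to 4.58%) and 26.3% of shared ones. P21-alone strong regions had a median distance of 11.2 kb, against 8.40 kb for shared P21 regions, and 19.9% (14.4 to 26.4%) lay within 1 kb of a gene end, against 31.5% of shared ones. At like strength, among regions between percentiles 50 and 60 of their list, 4.64% of adult-alone and 16.3% of shared adult regions lay within 1 kb of a gene end. In the same band the shares were 17.1% for P21-alone and 15.5% for shared P21 regions, with intervals that overlap.

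The number of genes around a region ordered the adult-alone share. A gene was counted when its midpoint lay in the 1 Mb centred on the region, so part of a long gene can lie there uncounted. A count of 0 thus does not mean gene-free DNA, and this order and that by gene length below are not independent. With no protein-coding gene counted in the surrounding 1 Mb, 24.0% of 845 strong adult regions were missing at P21 (21.2 to 27.1%). The share was 13.7% with 1 to 2 genes, 8.98% with 3 to 5, 5.46% with 6 to 10, 3.13% with 11 to 20 and 2.36% with more than 20. P21 regions went the other way. Of 351 strong P21 regions without a counted gene in 1 Mb, 0 were missing from the adult list, which allows a share of up to 1.05%. Where more than 20 genes were counted in 1 Mb, 0.809% (0.622 to 1.03%) were missing. Both orders were there at equal list length, at 17.2% down to 1.03% of strong adult regions and 0% up to 1.14% of strong P21 regions. A median of 4 genes lay in the 1 Mb around adult-alone strong regions and of 14.5 around P21-alone strong regions, beside 9 and 10 around the shared regions of the adult and P21 lists.

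**Figure D2:**
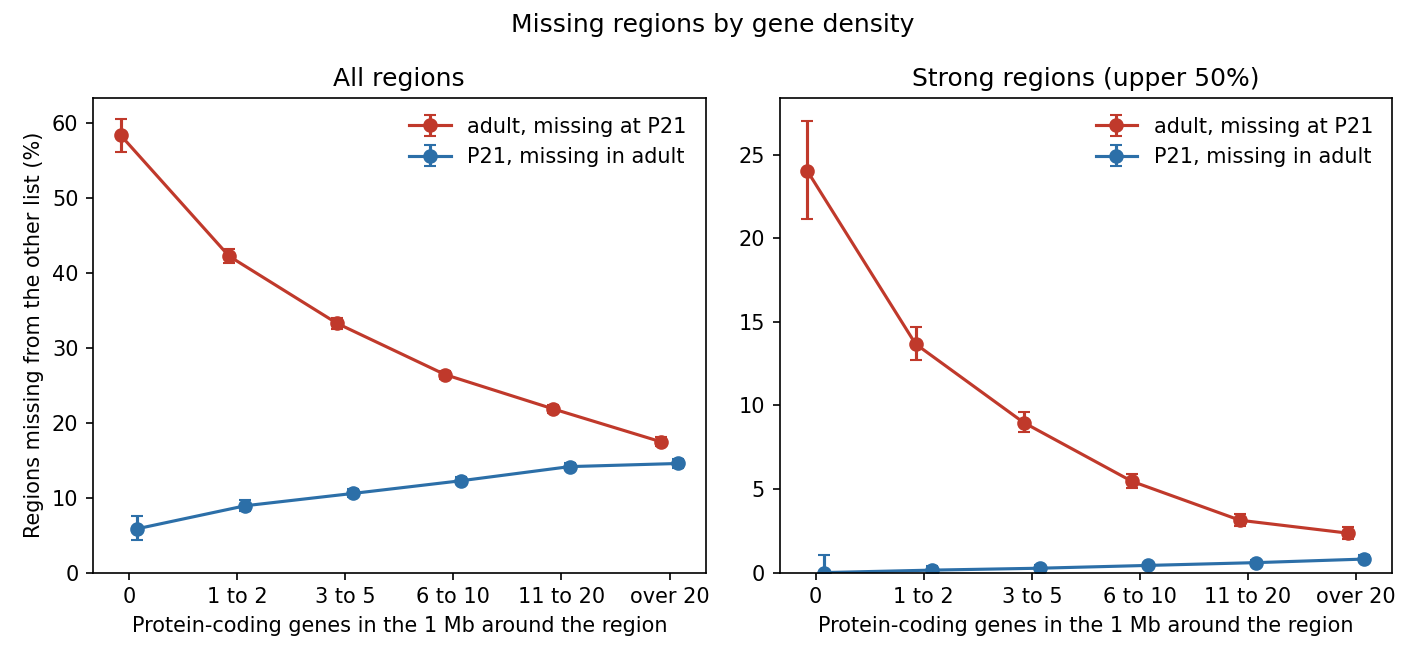
Share of regions missing from the other list (y axis, %) by the number of protein-coding genes with their midpoint in the surrounding 1 Mb (x axis). All regions are on the left and strong regions on the right, with adult HPCs in red and P21 HPCs in blue. Points are shares of 1 pooled list and bars are exact 95% intervals; the adult share of all regions goes from 58.3% to 17.4% while the P21 share goes from 5.84% to 14.6%.

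The lists also differed in how much gene-poor DNA they covered. Regions with at most 2 genes in 1 Mb made up 12.95% of the adult HPC list and 9.49% of the P21 list. In time order the HPC lists had 14.6% (fetal), 12.7% (P7), 11.3% (P14), 9.49% (P21) and 12.95% (adult), so the P21 list was the lowest of the 5, and the P14 HSC list had 7.67%. The adult list had the higher median −log10 p (57.3, against 48.9 at P21) and the narrower regions (median 466 bp, against 541 bp). The read depth of the libraries is not known here, and its part in these differences was not tested.

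Regions inside genes followed the length of the gene. In genes of over 300 kb, 495 of 4295 strong adult regions were missing at P21 (11.5%, 10.6 to 12.5%), against 37 of 3065 (1.21%, 0.851 to 1.66%) in genes under 10 kb. The shares in between were 2.0% (10 to 50 kb), 3.35% (50 to 100 kb) and 5.44% (100 to 300 kb). P21-alone strong regions stayed between 0.258% and 0.551% in all 5 classes of length, and the lengths were chosen after the leading genes were seen.

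**Figure D3:**
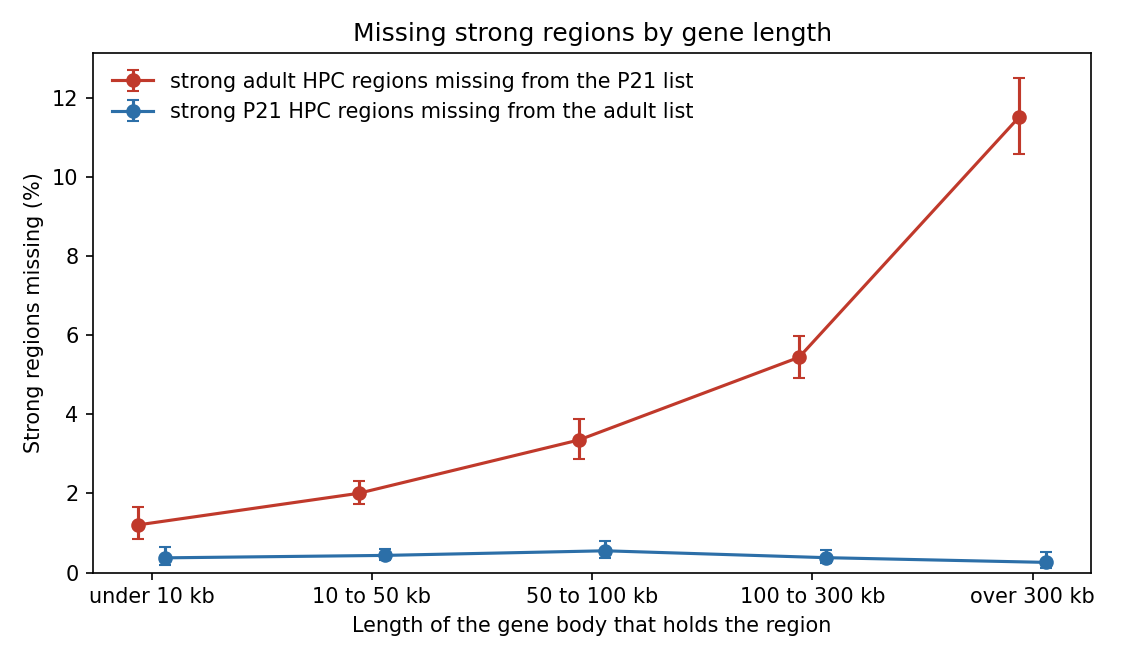
Share of strong regions missing from the other list (y axis, %) by the length of the gene body that holds them (x axis), for adult HPCs (red) and P21 HPCs (blue), with exact 95% intervals. The adult share goes from 1.21% in the shortest to 11.5% in the longest genes, and the P21 share is at most 0.551%.

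The genes with the most adult-alone strong regions in and within 10 kb of the gene were long. Fat3, a giant cadherin, had 7 of its 15 strong adult regions missing at P21, where its list held 10 regions in all, against 29 in adults. Dlg2, a synaptic scaffold, had 6 of 37, Fhit, a hydrolase gene at a fragile site, 6 of 22, and Hs6st3, a heparan sulfate sulfotransferase, 6 of 14. Pik3c2g, a class II phosphoinositide kinase, had 5 of 8, and its locus held 17 adult and 3 P21 regions. Ebf1, the transcription factor that commits cells to the B lineage, had 5 of 10. It was the one haematopoietic regulator among the 12 leading genes looked at, and further genes tied at 5 may not be among them. No gene had more than 2 P21-alone strong regions: Afg3l2, a mitochondrial protease, had 2 of 4 and Dennd3 2 of 7.

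The strongest adult-alone region lay on chromosome 1 (chr1:24612963-24614021), 25 kb from Col19a1, with a −log10 p of 4195. It lies in DNA known as a nuclear copy of mitochondrial sequence, to which mitochondrial reads can align, and besides adult HPCs it was called in 6 other lists, with a −log10 p of 3906 in fetal HPCs, 10.1 at P7 and 2648 at P14. The next was a region at the start of Mroh2a (chr1:88226981-88227799) with 449 in adults, called at 23.5 in fetal HPCs, 18.3 at P7 and 76.3 at P14. Nlgn1, a synaptic adhesion gene, held a region (chr3:25679340-25680012) with 431 in adult HPCs and 1827 in adult HSCs, missing from the fetal, P7 and P21 HPC lists. Regions with values from 301 to 413 lay over 50 kb from a gene end. One lay inside Lama2. The others lay outside named protein-coding genes, 66.3 to 454 kb from the nearest, which were Dhx35, Nudt12, Zwint, Adcyap1, Kcnd2 and Pgr. Of the next regions within 50 kb of a gene end, near Olfr110 and Olfr111 lay regions with 287 and 284, near Prl6a1, of the prolactin family, one with 290, and at Otc, the ornithine carbamoyltransferase of the urea cycle, one with 282. In windows of olfactory receptor genes, a family chosen after these values were seen, 13 of 105 strong adult regions (12.4%, 6.76 to 20.2%) and 1 of 66 strong P21 regions (1.52%) were list-specific. Windows of all protein-coding genes, here and below without predicted genes, gave 4.58% and 0.476%.

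The strongest P21-alone regions within 50 kb of a gene end had lower values. A region 37.6 kb from Hnrnpll, an RNA-binding regulator of splicing in lymphocytes, had a −log10 p of 142 (chr17:79991011-79991860), at percentile 81.6 of the P21 list. Those in or near Crocc, a rootletin gene of cilia, Ttll9, of the tubulin ligase-like family, and Hnrnpd, which binds AU-rich RNA, had 109, 103 and 102. Regions near Thumpd3 and Cycs, the gene of cytochrome c, had 98.1 and 90.1, and a region at the start of Heg1 had 89.6. These 7 were also called at P14, and, except for those near Hnrnpll and Ttll9, in fetal HPCs. Farther from genes, a region 102 kb from Cdc42ep3 had 110 and was called at P7 and P14 but not in fetal HPCs.

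Most strong list-specific regions were not specific to an age, and calls of the weaker ones in other lists were not counted. Of the 2838 adult-alone strong regions, 72.4% were called in fetal HPCs, 75.02% at P7 and 84.3% at P14, and 82.8% were called in adult HSCs. Shared strong adult regions were called in 95.03, 97.03, 99.1 and 94.1% of cases in the same 4 lists. All 3 younger HPC lists held 1629 of them (57.4%, 55.6 to 59.2%), so these regions were called before P21, missing at P21 and called again in adults. No younger HPC list held 185 of them (6.52%), of which 126 were in the adult HSC list, and 48 (1.69%) were in none of the other 10 lists. Of the 186 P21-alone strong regions, 84.4% were called in fetal HPCs, 76.9% at P7, 96.2% at P14 and 79.0% in adult HSCs, beside 97.8, 98.3, 99.8 and 95.5% of shared strong P21 regions. All 3 younger HPC lists held 115 of them (61.8%), and each of the 186 was in at least 1, so 0 were first called at P21, which allows a share of up to 1.96%.

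The P14 HSC list stood apart for the adult-alone regions. It held 42.1% of adult-alone strong regions and 80.6% of P21-alone ones, beside 86.1% and 91.5% of the shared regions of the adult and P21 lists. The 4 lists of the second set at P7 (wild-type and Ifnar-ko HPCs and HSCs) held 17.4 to 28.7% of adult-alone and 47.8 to 83.3% of P21-alone strong regions. These 5 lists also had the lowest shares of regions in gene-poor DNA, at 6.48 to 7.67%. They were the 5 shortest lists too, at 42459 to 73287 regions, and the part of list length in these shares was not tested.

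**Figure D4:**
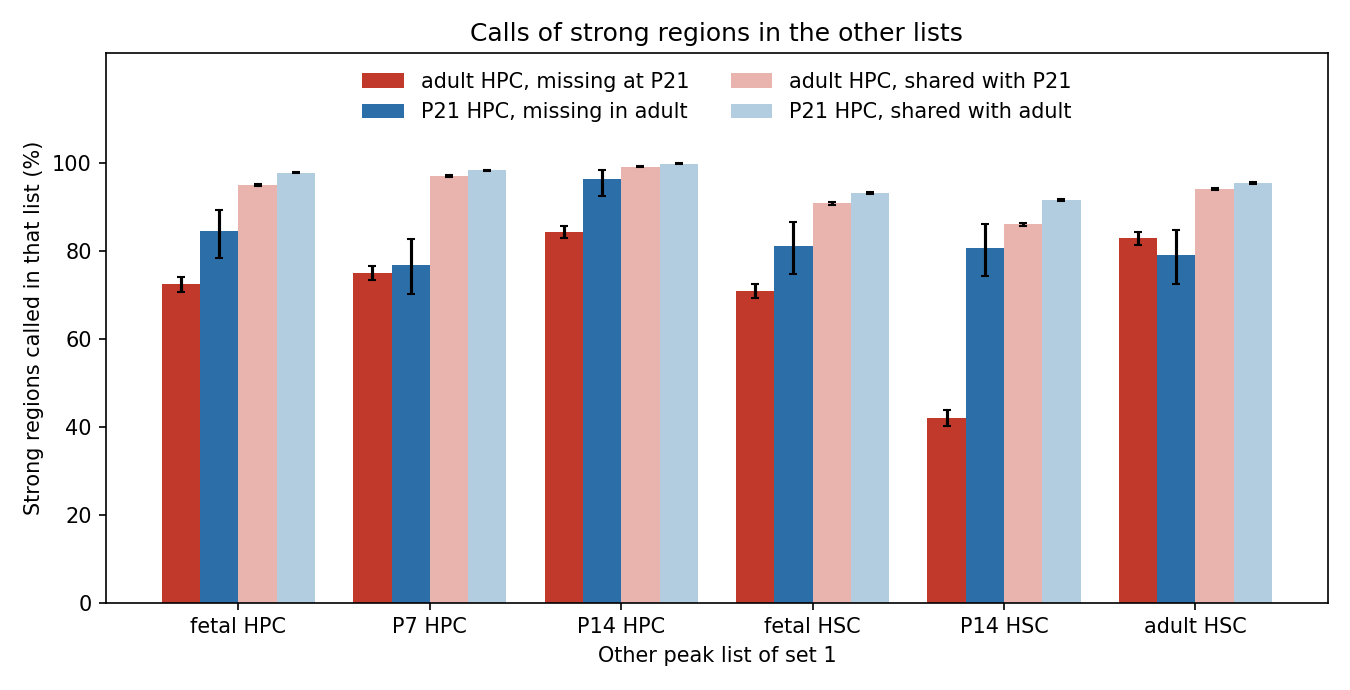
Share of strong regions called in each of the other 6 lists of the first set (y axis, %), for regions missing from the other HPC list (dark red, adult; dark blue, P21) and for shared regions (light red, adult; light blue, P21), with exact 95% intervals. Adult-alone regions lie between 70.9% and 84.3% except in P14 HSCs, where 42.1% were called.

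The regions called in adults and in no younger HPC list were nearer to genes than the rest. Their median distance to a gene end was 37.6 kb, against 63.4 kb for the 1629 that all younger HPC lists held, and 68.1% of the 185 (60.9 to 74.8%) were called in adult HSCs. The strongest lay in Cep162, a centriole gene (chr9:87210783-87211471), with 266 in adult HPCs and 340 in adult HSCs and in no other list. One lay 40.8 kb from Tnfsf11, which encodes RANKL, with 166 in adult HPCs and 390 in adult HSCs, and one 21 kb from Stard3nl, with 168 and 63.3. A region 22.3 kb from Zfp606, with 161, was in the adult HPC list alone.

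Set beside the other steps between HPC ages, each at a common length of 74297 regions, this one had the most strong regions in the later list alone. From fetus to P7, 1061 were in the later list alone and 1524 in the earlier, from P7 to P14 324 and 162, and from P14 to P21 99 and 705. From P21 to adult, 1447 were in the adult list alone and 277 in the P21 list alone. The adult-alone regions had a median of 4 genes in 1 Mb, as against 8, 13 and 9 for the later lists of the other steps, and the 705 regions in the P14 list but not at P21 had 5. Neighbouring steps share a list, so their counts are not independent.

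The densest run of adult-alone regions lay on the X chromosome, at Firre. This long non-coding RNA gene (chrX:50563120-50635321) carries an array of CTCF sites and is known for long-range contacts of the inactive X. The adult list held 22 regions within 10 kb of it and the P21 list 1. The 21 that were missing at P21 spanned 62.6 kb, with −log10 p from 35.3 to 222 (median 108), and 17 of them were strong. The region at the start of the gene (chrX:50634943-50635764) was shared, at 448 in adults and 393 at P21. Of the 21, 15 were called in fetal HPCs, 18 at P7, 19 at P14, 20 in fetal HSCs, 18 in P14 HSCs and 21 in adult HSCs. In the second set at P7, wild-type HPCs had 9 of the 21, Ifnar-ko HPCs 7, wild-type HSCs 4 and Ifnar-ko HSCs 0. The P21 HPC list was thus not alone in lacking them. In the same order these lists held 66044, 58567, 45615 and 42459 regions, and the part of list length in these counts was not tested.

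**Figure D5:**
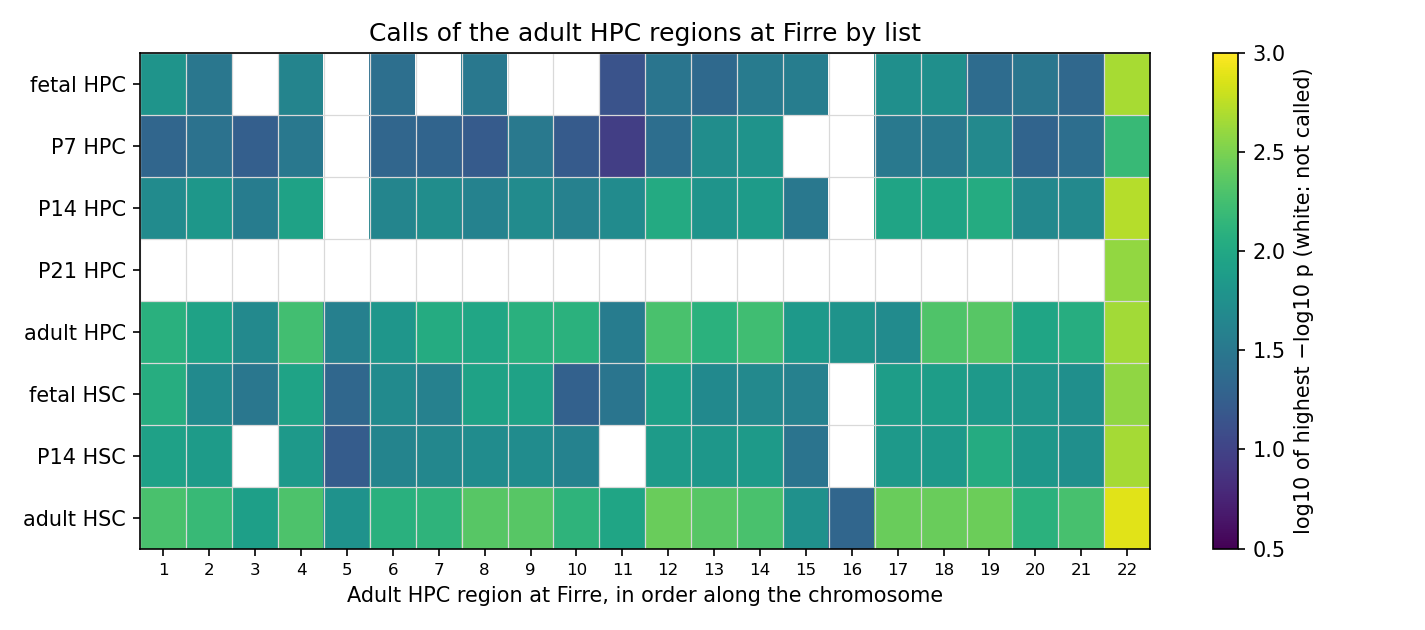
Calls of the 22 adult HPC regions at Firre (x axis, in order along the chromosome) in the 8 lists of the first set (y axis), with colour for the log10 of the highest −log10 p and white for regions not called. The P21 HPC row holds 1 region, the last, and the other 7 rows hold between 16 and 22.

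At other X-linked loci known for roles in X inactivation the P21 list held fewer regions than the adult list, as did lists of the second set. The lists of the second set are shorter, as given above. The locus of 4933407K13Rik, also named Dxz4, a repeat with CTCF sites at the hinge of the inactive X, had 11 adult regions and 1 P21 region within 10 kb. The other HPC lists had 2 (fetal), 9 (P7) and 10 (P14) there, the HSC lists 9 (fetal), 7 (P14) and 10 (adult), and the 4 lists of the second set 1 or 2. Xist, the RNA that coats the inactive X, had 3 adult regions and 1 P21 region within 1 kb of its body, and the 2 missing at P21 (−log10 p 113 and 64.5 in adults) lay toward its 5′ end. There the other lists of the first set held 2 or 3 regions, and those of the second set 2, except for Ifnar-ko HSCs with 1. Peaks at 7 single-copy genes of the Y chromosome were looked at beside this: the adult list had 2, at Ddx3y and Uty (highest −log10 p 51.9), the P21 list had 0, and the other lists of the first set had 5 to 7. These loci were chosen after the Firre values were seen, and the sex of the animals, which the sources used here do not give, was not tested. Over the whole X chromosome, 109 of 1190 strong adult regions (9.16%) and 3 of 885 strong P21 regions (0.339%) were list-specific, and among autosomes chromosome 18 had the highest adult-alone share (8.20%) and chromosome 7 the lowest (4.68%). Without X, 2729 adult-alone and 183 P21-alone strong regions were left.

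Regulators of stem and progenitor cells had more adult-alone than P21-alone strong regions, at close to the share of all genes. Within 10 kb of the 30 HSC regulators and markers, 10 of 155 strong adult regions (6.45%) and 1 of 128 strong P21 regions (0.781%) were list-specific, where the windows of all protein-coding genes gave 4.58% and 0.476%. At equal list length the counts were 4 of 123 (3.25%) and 2 of 128 (1.56%), beside 3.90% and 0.746% of all strong regions, in gene windows or not. Mecom, whose product EVI1 sustains HSCs, had 38 adult and 30 P21 regions, and 3 adult regions with −log10 p of 140, 73.5 and 62.1 were adult-alone and strong. All 3 were called in fetal and P14 HPCs and in adult HSCs. Lmo2, a scaffold of the blood stem cell complex, had 2, with 72.0 and 69.7. Runx1, the master regulator of definitive haematopoiesis, had the 1 P21-alone strong region of the list (71.2), also called at P14 (69.5).

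At other regulators few list-specific regions were strong, as over the whole lists. There, 2838 of 24987 adult-alone and 186 of 9316 P21-alone regions were strong, and 27.5% of all adult and 12.5% of all P21 regions were list-specific. Hlf, an HSC transcription factor, had 15 adult and 9 P21 regions, 8 of the adult ones missing at P21 and 0 of those strong. Prdm16 had 25 adult and 19 P21 regions, with 7 adult-alone and 2 P21-alone, none of them strong. Cdk6, the kinase of cell cycle entry, had 17 adult and 16 P21 regions, with 1 adult-alone strong region (80.2).

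The 17 genes of the fetal and juvenile programme held 2 adult-alone of 25 strong adult regions and 0 P21-alone of 21 strong P21 regions, where windows of all genes gave 4.58% and 0.476%. Over all their regions the direction turned, with 8 of 56 adult regions (14.3%) and 15 of 61 P21 regions (24.6%) list-specific, where all regions of the lists gave 27.5% and 12.5%. Lin28b, the RNA-binding protein of the fetal state, had 4 adult and 6 P21 regions, with 0 adult-alone and 2 P21-alone, and in time order its HPC lists held 11, 6, 8, 6 and 4. Igf2bp3 had 4 adult and 6 P21 regions, with 1 adult-alone strong region (81.4) and 3 weaker P21-alone regions. Hmga2 had 10 adult and 8 P21 regions, with 1 adult-alone strong region (97.4) that was also called at fetal age, P7 and P14.

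Among lineage genes, the adult-alone regions of the lymphoid list came mainly from Ebf1. In that list 6 of 89 strong adult regions (6.74%) and 0 of 81 strong P21 regions were list-specific, against 4.58% and 0.476% in windows of all genes, and 5 of the 6 were in Ebf1, with −log10 p from 58.4 to 105. At equal list length 1 of 73 strong adult regions (1.37%) was left in the list, beside 3.90% of all strong adult regions, in gene windows or not. Ebf1 had 25 adult and 15 P21 regions, and all 5 were called at P14. Ikzf1, the lymphoid zinc finger Ikaros, had 16 regions in both lists and no list-specific strong one. The erythroid and megakaryocytic list had 0 of 40 adult and 0 of 41 P21 strong regions list-specific, and the immediate early list with AP-1 genes 0 of 58 and 0 of 63. The myeloid list had 1 of 39 (at Csf2ra, a receptor of GM-CSF) and 1 of 35 (at Prtn3, a granule protease).

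Receptors of hormones and of innate signals were counted apart. Of the 22 hormone and growth factor receptors, 8 of 117 strong adult regions (6.84%) and 1 of 95 strong P21 regions (1.05%) were list-specific, against 4.58% and 0.476% in windows of all genes. At equal list length the adult count was 4 of 90 (4.44%), beside 3.90% of all strong adult regions, in gene windows or not. The adult-alone ones lay at Thrb (161), a thyroid hormone receptor, Lepr, the leptin receptor (140 and 60.6), Nr3c2, the mineralocorticoid receptor (115 and 62.7), Prlr, the prolactin receptor (101 and 64.0), and Igf1r (69.7), and the P21-alone one also at Igf1r (73.1). The 20 innate and cytokine receptor genes had 0 of 59 adult-alone and 2 of 57 P21-alone strong regions, at Myd88, the adaptor of Toll-like receptors (61.9), and Tlr7 (50.2), both also called in fetal, P7 and P14 HPCs. The type I interferon list had 1 of 57 and 1 of 61, the adult one at Oas3 (64.3) and the P21 one at Ifnar1 (64.6), and MHC genes had 1 of 43, at H2-Eb1 (59.9), and 0 of 38. Isg15 had 3 regions in both lists, Irf7 6 adult and 3 P21 regions, and Ciita, the master regulator of MHC class II, 10 adult and 9 P21 regions, with none of their list-specific regions strong.

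At Pgr, the progesterone receptor gene (chr9:8898900-8968611), adult values stood far above those at P21. A region 3.30 kb from the gene (chr9:8895138-8895595) had −log10 p of 676 in adults, at percentile 96.9 of the list at equal length, against 23.2 at P21, at percentile 23.0. It had 15.9 in fetal HPCs, was missing at P7, had 21.7 at P14, and had 834 in adult HSCs while the fetal and P14 HSC lists lacked it. A region just inside the gene (chr9:8900126-8902132) had 147 in adults and 40.5 at P21, and the gene with 10 kb on each side held 8 adult and 3 P21 regions. A distal region 66.3 kb away (chr9:8831834-8832583) was adult-alone, with 301 in adult HPCs and 494 in adult HSCs. Esr1, an oestrogen receptor gene, had 18 adult and 17 P21 regions, with no strong list-specific region in either direction.

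Regions called in both lists were ranked at equal length over 60081 pairs of mutual best overlap. In 362 pairs the adult percentile was over 50 points above the P21 one, and in 179 the P21 percentile was over 50 points above the adult one. At over 25 points the order of the counts was the other way, with 3878 pairs higher in adults and 4945 higher at P21, and the median move over all pairs, adult minus P21, was −1.48 points. The largest adult leads were in Pttg1ip2 (percentile 87.4 in adults and 5.49 at P21), near Cftr, the chloride channel of cystic fibrosis (84.5 and 4.16), in Uxs1 (93.4 and 13.1), near Abcb11, the bile salt pump (90.9 and 11.5), and in Sh2d4b (86.9 and 8.46). The largest P21 leads were in Tnfrsf23, a decoy receptor for TRAIL (8.18 in adults and 81.9 at P21), Ttll9 (6.46 and 76.4), Phf10, a subunit of the BAF complex (11.96 and 81.1), Uhrf1bp1 (8.18 and 75.7) and Cfap126 (3.45 and 70.8). Median moves, adult minus P21, followed gene density here too. They were 15.5 points with 0 genes counted in 1 Mb, −6.99 with more than 20, and −5.59 within 1 kb of a gene end.

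Markers of other cell types were counted in the same way, where windows of all genes gave 4.58% of adult and 0.476% of P21 regions. Adult-alone and P21-alone strong regions numbered 1 of 18 and 0 of 13 for hepatocytes, 0 of 24 and 0 of 28 for endothelium, 1 of 29 and 1 of 28 for stroma, and 1 of 17 and 0 of 17 for T cells. They numbered 0 of 12 and 0 of 12 for B cells, 2 of 13 (15.4%) and 0 of 9 for macrophages, 1 of 20 and 0 of 16 for mast cells and basophils, and 1 of 11 and 0 of 10 for regulators of non-haematopoietic tissues. The T cell one lay at Themis (172) and the macrophage ones at Cd5l (82.6) and Marco (73.1), all also called at P14. Homing and adhesion genes had 2 of 50 and 0 of 52, chromatin regulators 3 of 72 and 2 of 75, and genes of quiescence and the cell cycle 2 of 77 and 0 of 71. In all, 13 of the 21 lists had more adult-alone than P21-alone strong regions, 1 had fewer (innate and cytokine receptors), and 7 had equal numbers. At equal list length 7 had more and 5 had fewer.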

How the data were processed

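ATAC-seq had been measured in 35 libraries, of which 3 of adult HPCs and 2 of P21 HPCs were pooled into the 2 lists compared. The authors used Bowtie2 and MACS2 on mm10 (GRCm38), per the submitters' processing notes; versions, settings, read depth and pooling steps were not given in the sources used here. Each deposited list holds a score, a fold (ratio) over local background, and the p and q as −log10 values for every peak. All are the authors' own values, used here to describe, rank or filter peaks within a list; −log10 values also grow with depth, so those of 2 lists are set side by side as description only.

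Lists were assigned by their names. Peaks were merged and overlapped with pandas 2.3.3 and numpy 2.4.6 in Python 3.11.15, and intervals computed with scipy 1.17.1. A region takes the highest value of its peaks. Genes are the 21631 protein-coding genes of RefSeq GRCm38.p6, without strand, and promoters carry strand. Windows of all protein-coding genes cover the 20119 of them that are not predicted genes (Gm followed by digits, or names ending in Rik). Of 379 distinct members of 21 gene lists, 377 matched. The members, gene lists, loci and naming rule were chosen with earlier results of these data known. Genes named are those of the 10 strongest list-specific regions within 50 kb of a gene end in each direction, the 5 strongest in all or no younger HPC lists, the 5 largest rank moves, the genes with most list-specific strong regions, list members, and 20 genes always looked at; some go unprinted. Nlgn1, the other genes of regions over 50 kb away, the families, the loci of X and Y and the promoters shown fall outside this rule and were chosen after their values were seen. On simulated data, 200 strong regions were taken out of a duplicate of the adult list of 90698 regions. Of these, 200 were found as missing, with 0 others. The regions left in were shifted by less than their width and so had to overlap themselves. This checks the overlap code only, and not errors between lists that differ in depth or peak width.

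Alternatives were another strength limit, equal list length, other overlap rules, a −log10 q of at least 5 and strength by fold.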

Additional observations from a re-analysis of the deposited data

How the results depend on the processing

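Adult-alone strong regions outnumbered P21-alone ones under each of the 10 alternatives run, 2 of which (autosomes only, and the summit of the highest peak inside a region of the other list) were added after seeing the data. Over all regions at equal length, the counts were 13463 adult-alone and 13752 P21-alone, which the equal length itself holds near each other. The counts differed from 2838 and 186 by over 1.5 times at the upper 25% of each list (296 adult-alone and 3 P21-alone), over all regions (24987 and 9316) and, for adult-alone regions, at equal length (1447). P21-alone regions numbered 694 when at least 50% of the region had to be covered and 640 with strength by fold at equal length. The share of adult-alone strong regions within reach of a gene end was 5.71% at 2 kb, where the shared regions of the adult and P21 lists had 30.0% and 35.5%. At equal length the shared adult share was 28.2%. With all HPC lists cut to the shortest, adult-alone regions were called in 82.7% at P14, 79.1% at P7, 87.8% in adult HSCs, 75.7% in fetal HSCs and 61.3% in all 3 younger HPC lists. At equal length 7 gene lists had more adult-alone and 5 more P21-alone strong regions, and over all regions 5 had more P21-alone ones. The other alternatives stayed within 1.5 times the count or within the interval of the share, and the cause of the moves was not tested beyond the shorter list itself. No paired analysis was possible because each age has 1 pooled list, and for the same reason no replicate could be left out. Depth per library is not known, so regions missing from a list may lie below its detection.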

Other observations

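Of 1005 microRNA hairpins of RefSeq GRCm38.p6, adult regions overlapped 100 and P21 regions 105. An adult-alone region overlapped 10 and a P21-alone region 7, where 27.5% of all adult and 12.5% of all P21 regions were list-specific. The adult-alone hairpins included Mir34b and Mir34c, targets of p53, under 1 region with a −log10 p of 21.2, and Mir375, Mir137 and Mir449a with 11.7, 12.8 and 11.6. The highest were Mir7048 (54.6) and Mir1955 (48.8). The P21-alone hairpins included Mir6546 (31.0), Mir1932 (29.0) and Mir1247 (12.4). All 10 adult-alone values lay below the limit of 57.3 for strong adult regions. All 7 P21-alone values lay below the limit of 48.9 for strong P21 regions. In both directions they belong to the weaker part of their list.

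Gene families were chosen after the leading genes were seen, and windows of all protein-coding genes gave 4.58% of adult and 0.476% of P21 strong regions as list-specific. Zinc finger genes of the Zfp series had 11 of 659 strong adult regions missing at P21 (1.67%, 0.836 to 2.97%) and 3 of 631 strong P21 regions missing in adults (0.475%). Ribosomal protein genes had 1 of 144 and 2 of 149, and histone genes 1 of 58 and 0 of 51. Vomeronasal receptor genes had 2 of 15 and 0 of 9.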
